A study of Mus musculus with 2 samples.

Results

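Within the in situ polyadenylated library, nuclei of the mouse myoblast line C2C12 were ranked by their Malat1 share, and the lowest quartile of nuclei was set against the highest. A nucleus was a barcode with over 750 unique molecules (UMIs) in the transcriptome-based (kallisto) matrix. The ranking share was Malat1 UMIs over the UMIs left after removing 5 abundant genes, namely Rn18s-rs5, Lars2, Mir6236, AY036118 and ENSMUSG00002075551. The Malat1-low and Malat1-high quartiles held 334 nuclei each, 668 of 1335 tailed nuclei and of 2458 nuclei in the whole series. The quartiles were chosen by these measured values, so the Malat1 difference between them only describes that choice.

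The series compares single-nucleus RNA-sequencing (Chromium v3) with and without a tailing step. In the tailed library, methanol-fixed nuclei were incubated with yeast poly(A) polymerase, an enzyme that adds adenosines to RNA 3′ ends, for 25 min at 37 °C before droplet capture. Standard nuclei were C2C12 nuclei processed in a similar way, but had neither the enzyme nor the incubation. Both libraries were made from 1 immortal line, there was 1 library for each, and no barcode among the retained nuclei was shared between them. The comparison therefore had no replicate. No test was run, and the 95% intervals given in parentheses are exact and cover counting error only.

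Malat1 is a long noncoding RNA that is retained in the nucleus, where it gathers at the speckles that store splicing factors, and it is commonly used as a sign that a droplet holds nuclear RNA. Messenger RNAs for ribosomal proteins and for the respiratory chain are mostly cytoplasmic once spliced, and RNAs encoded by the mitochondrial genome stay outside the nucleus. Small nucleolar RNAs (snoRNAs) guide the processing and modification of ribosomal RNA (rRNA) in the nucleolus, and their mature forms carry no poly(A) tail. Replication-dependent histone mRNAs also end without a tail, in a stem-loop.

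Malat1 (chr19:5845717-5853602, GRCm39) held 1000 of 111685 ranking UMIs in the Malat1-low quartile, 0.895% (0.841 to 0.952), and 17980 of 170974 in the Malat1-high quartile, 10.5% (10.4 to 10.7). The second and the third quartile lay between, at 1.89% and 3.15%. The log2 ratio of low over high was -3.55, or 11.7-fold. In single nuclei, the median share was 0.914% in the low quartile and 6.80% in the high quartile, where it reached 43.0%, and 34 nuclei of the low quartile had no Malat1 UMI. At the lower bound, the last nucleus inside had 1.432% and the first outside 1.434%. At the upper bound, the first nucleus inside had 4.165% and the last outside 4.160%. Because few Malat1 UMIs place a nucleus in a quartile, each nucleus's UMIs were divided at random into equal parts, one for the ranking and the other for reading Malat1. The end quartiles formed anew on the ranking part held 1.48% and 10.5% Malat1 in the other part, 7.07-fold apart. In the genome-based (STAR) counts of the same nuclei, the Malat1 log2 ratio was -2.74.

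**Figure D1:**
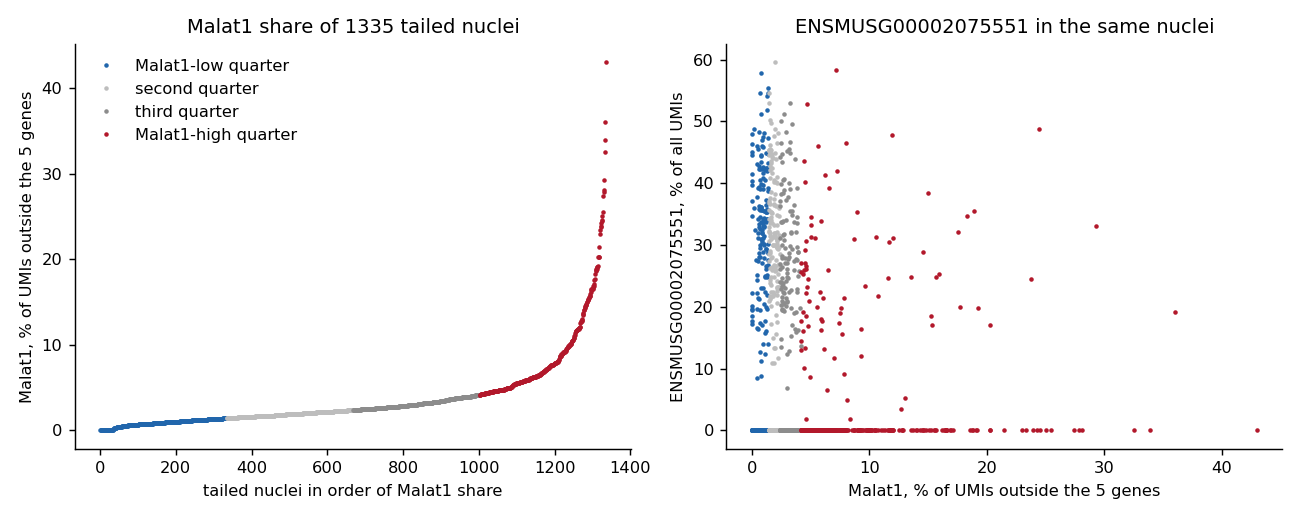
Left, the 1335 tailed nuclei in order of their Malat1 share, as a percentage of UMIs outside the 5 genes. Right, the same shares against ENSMUSG00002075551 as a percentage of all UMIs. The curve is shallow up to the highest quartile, where it climbs to 43.0%, and nuclei with ENSMUSG00002075551 at 0 and nuclei with at least 15 UMIs of it occur in each quartile.

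Depth was alike in the quartiles by total UMIs and unlike by the UMIs used for the ranking. The median nucleus had 1054 UMIs in the low quartile and 1080 in the high quartile, but 272 and 379 ranking UMIs. Outside the 5 genes and Malat1, 110685 UMIs were left in the low quartile and 152994 in the high quartile, and gene and list values are shares of these unless stated. A share cannot tell more of one RNA from less of the others. The cells were checked with markers of blood, endothelial and epithelial cells. Of 17 such genes, 3 had a kallisto UMI, with 2 UMIs in the low quartile and 6 in the high quartile. In STAR counts of the same nuclei this list had a log2 ratio of low over high of 0.76 (0.54 to 0.98). Its kallisto share was 0.0725% in tailed barcodes with 1 to 100 UMIs, against 0.00181% and 0.00392% in the quartiles. Desmin (Des), a muscle intermediate filament, had 80 and 116 UMIs, and the myoblast factor Myod1 4 and 8. No retained tailed nucleus reached a mitochondrial share of 5% of all its UMIs, with the 5 genes and Malat1 included in the total.

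Among the 5 genes left out of the ranking, ENSMUSG00002075551 differed most. It is printed beside ENSMUSG00002076173, the other annotated 57-nt gene of near-identical sequence, because the kallisto table gave many UMIs to the former and the STAR table to the latter. Capitals mark bases lying in a 31-base word that also occurs in annotated rRNA or in the 600-base rRNA stretch of an unplaced contig. ENSMUSG00002075551 lies at chr13:9884505-9884561 on the minus strand and ENSMUSG00002076173 at chr16:10961989-10962045 on the plus strand (GRCm39). Counted from the 5′ end of ENSMUSG00002075551, they differ by A11G and match at the other 56 bases.
ENSMUSG00002075551: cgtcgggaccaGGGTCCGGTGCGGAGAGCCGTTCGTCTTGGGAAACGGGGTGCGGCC
ENSMUSG00002076173: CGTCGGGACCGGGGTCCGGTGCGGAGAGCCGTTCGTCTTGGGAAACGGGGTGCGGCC

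ENSMUSG00002075551 took 20.4% of all UMIs in the Malat1-low quartile, then 17.6% and 13.1%, and 9.02% in the Malat1-high quartile. Its log2 ratio of low over high was 1.18 (1.16 to 1.19). The table listed 828 of the 1335 tailed nuclei at 0 and the other 507 at 15 UMIs or more, a gap whose source could not be worked out from the data. From the low to the high quartile, 49.4%, 41.9%, 34.8% and 25.7% of nuclei were listed with it. Where it was listed, its median share of the nucleus was 33.8% in the low quartile and 23.9% in the high quartile. Both the number of nuclei with it and its level in them were thus higher at low Malat1.

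The other 4 genes together were level, at 55.6% of UMIs in the low quartile and 56.3% in the high quartile. Rn18s-rs5, a copy of 18S rRNA, held 46.2% and 49.1%, a log2 ratio of -0.09. Lars2, a mitochondrial leucyl-tRNA synthetase gene, has 79 words of 31 bases in its gene body in common with rRNA. It held 5.87% and 3.61%, a log2 ratio of 0.70 (0.67 to 0.73). AY036118 had a log2 ratio of 0.65 and Mir6236 of -0.05. Mir6236 shared no 31-base word with the rRNA used here. AY036118 had no match in the annotation, so its sequence was not searched. The 5 genes together took 76.0% (75.9 to 76.1) of UMIs in the low quartile and 65.4% (65.2 to 65.5) in the high quartile. In the standard nuclei ranked in the same way the 5 genes took 28.5% in both end quartiles, and neither end held a UMI of ENSMUSG00002075551. In the STAR counts the 5 genes held 13.9% of UMIs in the low and 19.4% in the high quartile, the opposite order. With Peak1 and ENSMUSG00002076173 added, the STAR shares were 69.1% and 58.2%.

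**Figure D2:**
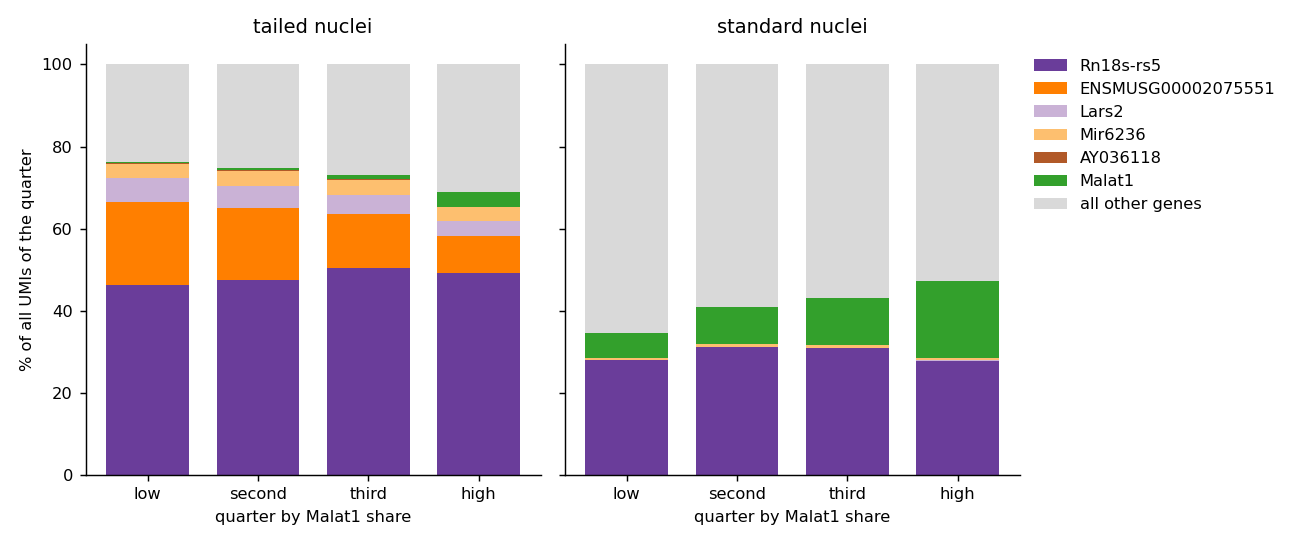
Stacked percentages of all kallisto UMIs in each quartile by Malat1 share, for tailed nuclei (left) and standard nuclei (right), with the 5 genes, Malat1 and all other genes in colours. In tailed nuclei the ENSMUSG00002075551 segment shrinks from 20.4% to 9.02% while Rn18s-rs5 stays between 46.2% and 50.4%, and in standard nuclei the 5 genes sum to 28.5% at both ends.

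Over all genes, differences were small. Of 398 genes with at least 100 UMIs in the end quartiles together, 13 (3.27%) were at least 2-fold higher in Malat1-low nuclei and 7 (1.76%) at least 2-fold higher in Malat1-high nuclei. Because the minimum is on the sum, a gene could pass it mainly through the quartile where it was higher, and the high quartile held more UMIs. Which side had more depended on the setting. The counts were 37 and 40 of 1008 genes at a minimum of 50 UMIs and 9 and 2 of 141 genes at 200 UMIs. In STAR counts they were 25 and 102 of 3318 genes. The median log2 ratio was -0.07, and the middle of the distribution ran from -0.38 (25th percentile of genes) to 0.24. Counting intervals lay above 0 for 50 genes and below 0 for 76. The genes at the ends were of different kinds. The 13 on the low side were snoRNA and other small RNA genes, histone genes, the snoRNA host Snhg1, transcripts that share sequence with rRNA, and 2 unclassified transcripts. The 7 on the high side were all protein-coding, as were 372 of all 398 genes.

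**Figure D3:**
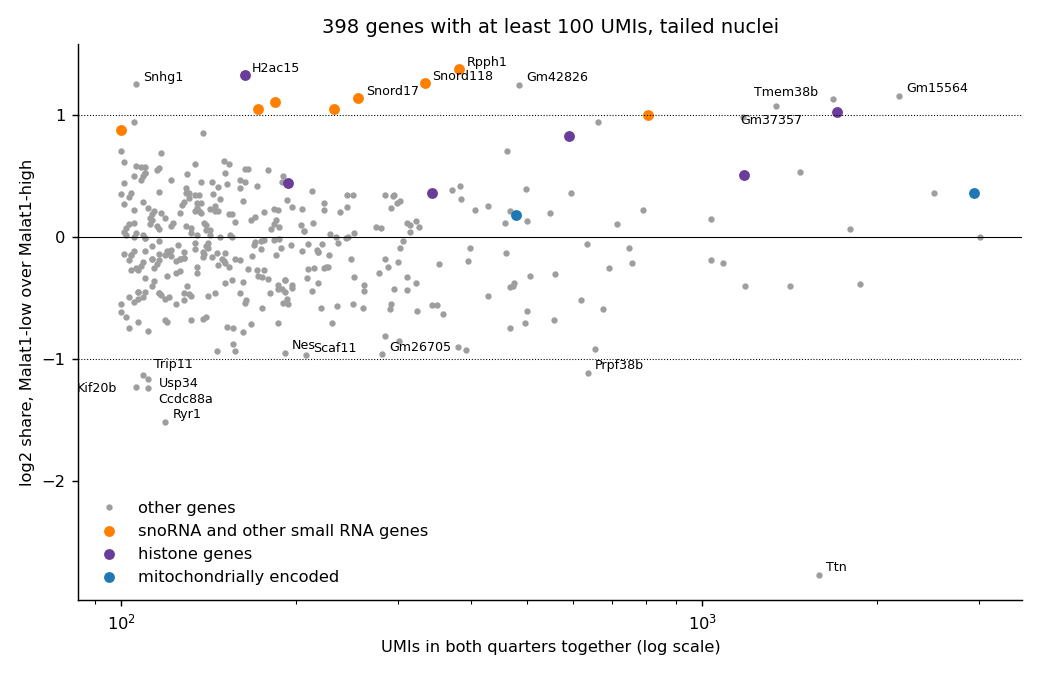
Each point is 1 of the 398 genes, with its UMIs in both end quartiles together on a log axis and the log2 ratio of its share in Malat1-low over Malat1-high nuclei, dotted lines at 2-fold. The coloured small RNA and histone genes sit above 0, reaching 1.37 for Rpph1, and Ttn stands alone at -2.77.

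The snoRNA class was higher in Malat1-low nuclei. The 121 of 1558 annotated snoRNA and scaRNA (Cajal body RNA) genes with a UMI held 1192 UMIs in Malat1-low nuclei and 790 in Malat1-high nuclei, or 1.08% and 0.517% of the UMIs. The log2 ratio was 1.06 (0.93 to 1.19), with 0.999% and 0.789% in the quartiles between. UMIs of the class were seen in 299 of 334 low and 250 of 334 high nuclei, and the 10 highest nuclei held 14.3% and 14.9% of them, so their concentration in few nuclei was alike. All 5 members with at least 100 UMIs were higher in the low quartile, 4 of them by 2-fold or more, against 3.27% of all genes. Box C/D snoRNAs, which guide methylation, had a log2 ratio of 1.14 (0.97 to 1.31). Box H/ACA snoRNAs, which guide pseudouridylation, had 27 and 12 UMIs and a ratio of 1.64 (0.61 to 2.75).

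The 2 abundant snoRNAs Snord118 and Snord17 are printed for their box C (TGATGA) and box D (CTGA) letters, the motifs by which box C/D RNAs bind their protein partners. Capitals mark the first TGATGA and the last CTGA on the RNA strand. Of 1507 annotated snoRNA genes, 26.1% hold TGATGA and 79.5% hold CTGA somewhere on that strand. Snord118, or U8, lies at chr11:68964253-68964387 on the plus strand and Snord17 at chr2:144107899-144108136 on the minus strand (GRCm39).
Snord118: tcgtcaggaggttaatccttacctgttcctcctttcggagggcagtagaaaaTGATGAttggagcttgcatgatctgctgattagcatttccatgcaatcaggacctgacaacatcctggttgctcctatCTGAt
Snord17: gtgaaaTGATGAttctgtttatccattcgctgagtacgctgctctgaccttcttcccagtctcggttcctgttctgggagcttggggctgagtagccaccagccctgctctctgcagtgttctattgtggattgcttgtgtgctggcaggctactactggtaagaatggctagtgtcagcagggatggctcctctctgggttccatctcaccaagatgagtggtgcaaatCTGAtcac

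Snord118, needed for maturation of 5.8S and 28S rRNA, had 211, 235, 180 and 122 UMIs from the low to the high quartile, a log2 ratio of 1.26 (0.93 to 1.59). Snord17 had 157 and 99 UMIs at the ends and a ratio of 1.13 (0.76 to 1.51). As a share, both were lower in every next quartile. Snord72, a less abundant member, had 36 and 32 UMIs, with an interval of -0.09 to 1.37 that included 0.

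Other nuclear small RNAs lay on the same side as the snoRNAs. Rpph1, the RNA of RNase P that trims tRNA precursors, had the highest ratio of the 398 genes, 249 against 133 UMIs, a log2 of 1.37 (1.06 to 1.69). Rmrp, the RNA of the related RNase MRP, had 103 and 69 UMIs and a ratio of 1.04 (0.59 to 1.51), and Scarna2 139 and 93 UMIs and a ratio of 1.05 (0.66 to 1.44). The list of nuclear small RNAs outside the snoRNA class held 358 and 203 UMIs, a ratio of 1.29 (1.03 to 1.54). Nearly all of these UMIs were those of Rpph1 and Rmrp, so the list value mostly repeats these 2 genes. The abundant 7SK gene below was not counted in the list. 7SK, which holds the elongation factor P-TEFb inactive, is the symbol of many annotated genes. Its most abundant one, ENSMUSG00002076161, had 476 and 330 UMIs and a ratio of 1.00, but 171 of the former came from 1 nucleus, and without the highest nucleus of each quartile the ratio was 0.43. Cytoplasmic small RNAs such as the Y RNAs and vault RNA were also higher at low Malat1, with only 26 and 18 UMIs, a ratio of 1.00 (0.07 to 1.95).

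**Figure D4:**
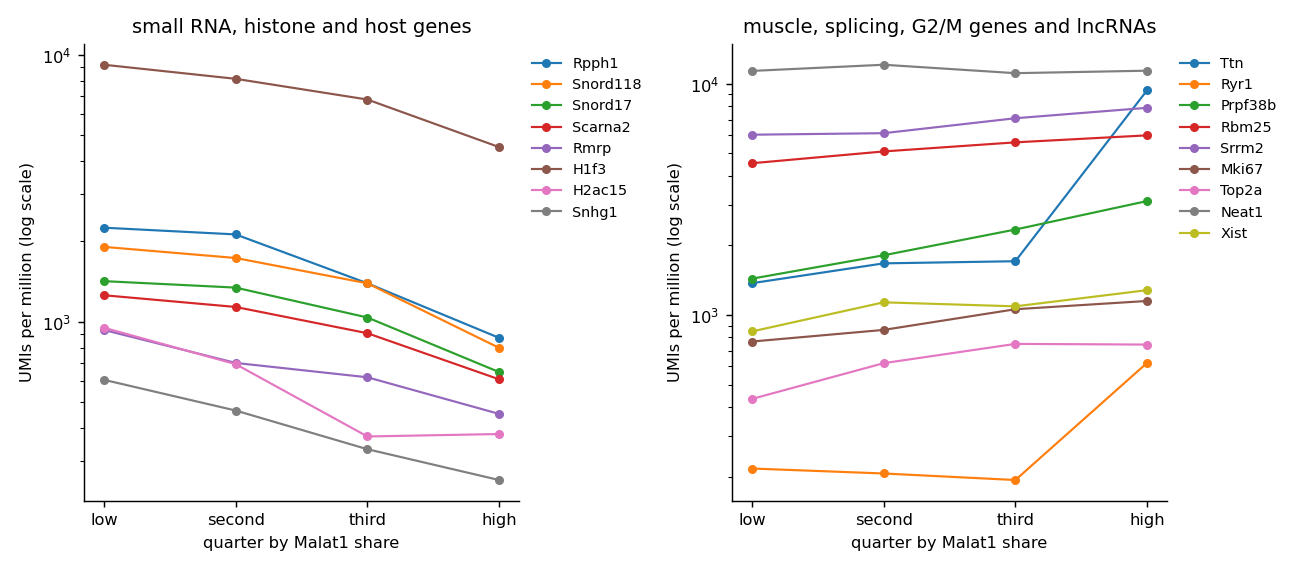
Levels over the 4 quartiles as CPM (UMIs scaled to a fixed total outside the 5 genes and Malat1), on log axes, for small RNA, histone and host genes (left) and for muscle, splicing and G2/M genes with 2 long noncoding RNAs (right). Levels at left decline from low to high Malat1, except H2ac15, at 371 and 379 in the third and the high quartile. At right Ttn goes from 1710 in the third to 9385 in the high quartile, and Neat1 stays between 11127 and 12101.

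Histone genes were likewise higher in Malat1-low nuclei. The 57 of 64 replication-dependent histone genes with a UMI held 3261 and 2503 UMIs, 2.95% and 1.64%, a log2 ratio of 0.85 (0.77 to 0.92). All 6 members with at least 100 UMIs were on the low side, 2 of them by 2-fold or more, against 3.27% of all genes. H1f3, a linker histone that binds DNA between nucleosomes, had 1016 and 690 UMIs and a ratio of 1.03 (0.88 to 1.17). The linker histones H1f2 and H1f4 had ratios of 0.83 and 0.51, and H1f5 0.36 (0.04 to 0.67). H2ac15, a core histone H2A gene, had 105 and 58 UMIs and a ratio of 1.32 (0.85 to 1.81), spread over 37 and 21 nuclei. Core histone genes alone had 1054 and 696 UMIs, a ratio of 1.07 (0.93 to 1.21). In standard nuclei the list's ratio was 0.08 (-0.06 to 0.23). Core histone genes alone had 234 and 104 UMIs there, a ratio of 0.77 (0.43 to 1.11), and 0.15 (-0.13 to 0.44) in STAR counts.

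The stem-loop that replaces the poly(A) tail is printed for the 3 linker histone genes H1f3, H1f2 and H1f4. Capitals mark the match to the 16-base motif on the gene's strand, in which the fourth, the tenth and the thirteenth base were left free. The match was found in 41 of 63 replication-dependent histone genes searched and in 57 of all 21627 protein-coding genes, 0.264%. H2ac15 and H1f5 held no match to this motif, and H1f1 was not considered for printing. The windows are chr13:23739957-23739980 on the plus strand for H1f3, chr13:23923491-23923514 on the plus strand for H1f2 and chr13:23805761-23805784 on the minus strand for H1f4 (GRCm39).
H1f3: aaacGGCTCTTTTCAGAGCCaccc
H1f2: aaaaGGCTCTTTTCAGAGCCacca
H1f4: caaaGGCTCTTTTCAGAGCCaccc

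Genes that carry snoRNAs in their introns or rRNA-like sequence in their exons were also on the low side. The snoRNA host list, 18 genes with a UMI, had 263 and 202 UMIs and a log2 ratio of 0.85 (0.58 to 1.12). Snhg1 had 67 and 39 UMIs and a ratio of 1.25, and Gas5 41 and 21 UMIs and a ratio of 1.43 (0.64 to 2.27). Transcripts other than rRNA and the 5 genes that share a 31-base word with rRNA had a ratio of 1.10 (1.02 to 1.18). Among them Gm15564 had 1349 and 837 UMIs, a ratio of 1.16. Tmem38b, a channel gene, had 1029 and 652 UMIs and a ratio of 1.13, which turned to -0.64 in STAR counts. Gm42826 and Gm37357, 2 unclassified transcripts without such a word, had ratios of 1.24 (0.97 to 1.52) and 1.07 (0.91 to 1.23).

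Nuclear long noncoding RNAs other than Malat1 did not share the Malat1 difference. The list held 2169 UMIs in Malat1-low nuclei and 2749 in Malat1-high nuclei, a log2 ratio of share of 0.13 (0.04 to 0.21). Neat1, which builds paraspeckles next to the speckles, had 1259 and 1744 UMIs, or 11380 and 11405 CPM, a ratio of -0.00 (-0.11 to 0.10). Xist, which coats the inactive X chromosome, was lower in the low quartile, 94 against 196 UMIs, a ratio of -0.59 (-0.96 to -0.23). Kcnq1ot1 had 12 and 16 UMIs and Firre 19 and 31, with intervals that included 0. Gm47283 had 753 and 720 UMIs, a ratio of 0.53 that turned to -1.01 in STAR counts, and without this 1 gene the list's ratio was -0.05 (-0.15 to 0.05). The list's ratio was -0.36 in STAR counts, in which the median of 379 genes in both tables was -0.29, so list values from STAR are to be read against that shift. On the STAR scale the snoRNA class stood at 0.75, histones at 0.54, ribosomal protein genes at 0.21, mitochondrially encoded RNA at 0.16 and splicing genes at -0.43.

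RNAs of cytoplasmic function were mostly level or somewhat higher in Malat1-low nuclei. The 80 cytosolic ribosomal protein genes with a UMI held 0.867% and 0.653% of UMIs, a log2 ratio of 0.41 (0.28 to 0.54). None of the 4 with at least 100 UMIs passed 2-fold, against 3.27% of all genes on the low side. Rpl8 had 92 and 87 UMIs and a ratio of 0.55 (0.11 to 0.99), and Rpl41 47 and 72 UMIs and a ratio of -0.15 (-0.71 to 0.40). Eef1a1, the factor that brings tRNA to the ribosome, had a ratio of 0.69 (0.14 to 1.24), while the translation factor list stood at 0.06 (-0.11 to 0.22). Nuclear genes of oxidative phosphorylation had a ratio of 0.29 (0.06 to 0.51), actin cytoskeleton genes 0.04 (-0.09 to 0.16) and secreted and matrix genes 0.15 (0.05 to 0.25). Actb had 76 and 107 UMIs, a ratio of -0.03.

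Mitochondrially encoded RNA held 1.66% of UMIs in Malat1-low and 1.28% in Malat1-high nuclei, a log2 ratio of 0.37 (0.28 to 0.46). The 16S rRNA mt-Rnr2 made up most of it, with 1414 and 1528 UMIs and a ratio of 0.36 (0.25 to 0.46), and the 12S rRNA mt-Rnr1 had a ratio of 0.18 (-0.09 to 0.44). The mitochondrial mRNAs held 205 and 169 UMIs, a ratio of 0.75 (0.44 to 1.05). Among them mt-Co1 had 24 and 12 UMIs and a ratio of 1.47, and mt-Nd4 47 and 33 UMIs and a ratio of 0.98.

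**Figure D5:**
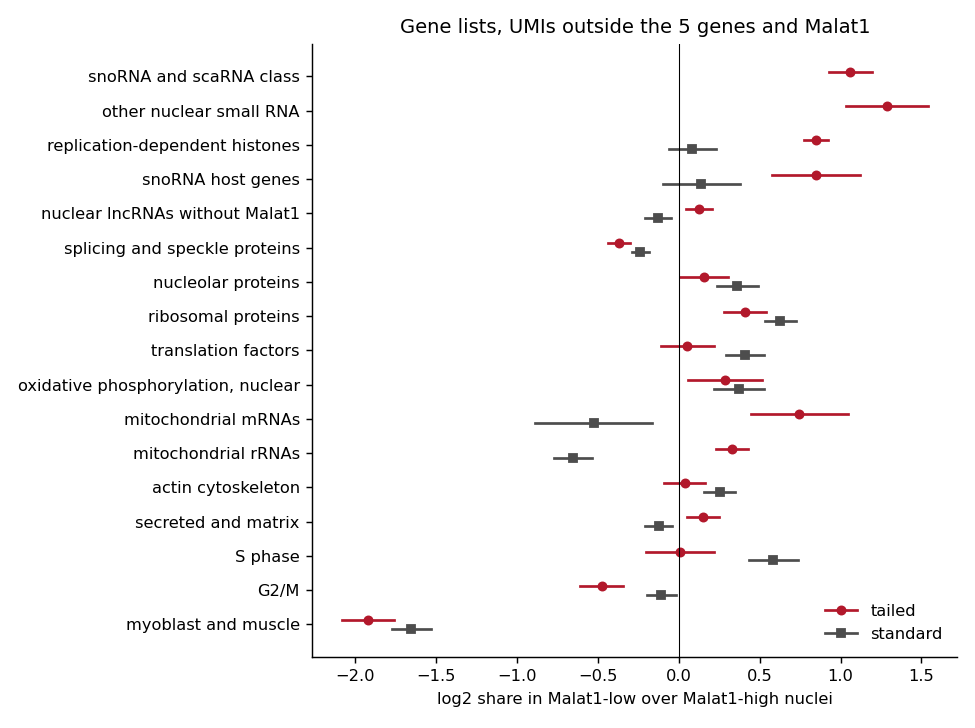
The log2 ratio of each gene list's share in Malat1-low over Malat1-high nuclei for tailed (circles) and standard (squares) nuclei, with 95% counting intervals as bars, for lists with at least 100 UMIs in the end quartiles. In tailed nuclei, of the lists drawn, other nuclear small RNAs, nearly all Rpph1 and Rmrp, lie furthest to the right at 1.29. They are followed by snoRNAs at 1.06, with histones and snoRNA hosts both at 0.85. The muscle list lies furthest to the left at -1.92.

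On the Malat1-high side, mRNAs for speckle and splicing proteins were higher. The list of SR proteins and speckle components held 2876 and 5131 UMIs, 2.60% and 3.36%, a log2 ratio of -0.37 (-0.43 to -0.30). Of its 13 members with at least 100 UMIs, 12 were below 0, against 222 of all 398 genes (55.8%), and none passed 2-fold, against 1.76% of all genes. Srrm2, a scaffold of speckles, had 667 and 1205 UMIs and a ratio of -0.39 (-0.53 to -0.25), and Rbm25, a splicing regulator, 502 and 916 UMIs and a ratio of -0.40. Son, the other main speckle protein, had a ratio of -0.31 (-0.57 to -0.06). Prpf38b, a spliceosome factor outside the list, had 159, 246, 303 and 476 UMIs over the quartiles, a ratio of -1.12 (-1.38 to -0.85).

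G2/M genes were also higher at high Malat1, with 715 and 1372 UMIs and a log2 ratio of -0.47 (-0.61 to -0.34). Top2a, which untangles chromosomes, had 48 and 114 UMIs and a ratio of -0.78 (-1.30 to -0.28). Mki67, a proliferation marker, had 85 and 176 UMIs and a ratio of -0.58, and Kif20b, a kinesin of cell division, 25 and 81 UMIs and a ratio of -1.23 (-1.94 to -0.57). S-phase genes had a ratio of 0.01 (-0.20 to 0.22). In STAR counts of tailed nuclei the G2/M list stood at -0.52. In standard nuclei the G2/M list was near 0, at -0.11 (-0.20 to -0.02), and at 0.10 (0.06 to 0.15) in STAR counts. The S-phase list of standard nuclei stood at 0.58 (0.43 to 0.73). Among the other lowest genes of tailed nuclei were Ccdc88a at -1.24, Usp34 at -1.17, Trip11 at -1.14, Scaf11 at -0.97, Gm26705 at -0.96 and Nes at -0.95.

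Many of these genes have long transcripts. Over 372 protein-coding genes, the log2 ratio and the length of the longest annotated transcript had a Spearman correlation of -0.39 across genes, which share the same 2 sets of nuclei. The 124 genes with the shortest transcripts (393 to 5127 nt) had a median ratio of 0.10, the 124 in the middle -0.09 and the 124 longest (7981 to 107543 nt) -0.26. In standard nuclei the correlation over 822 genes was -0.38.

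A few muscle genes had the largest ratios toward Malat1-high nuclei, and their UMIs were concentrated in few nuclei. Ttn, the giant spring protein of the sarcomere, had 152, 227, 221 and 1435 UMIs over the quartiles, a log2 ratio of -2.77 (-3.02 to -2.53). At least 5 Ttn UMIs were found in 3 of 334 Malat1-low and 41 of 334 Malat1-high nuclei, and 10 nuclei held 59.0% of the high quartile's Ttn UMIs. Ryr1, the calcium release channel of muscle, had 24 and 95 UMIs and a ratio of -1.52 (-2.23 to -0.86). Myh3, embryonic myosin, had 1 and 96 UMIs in 1 and 14 nuclei, a ratio of -6.12 (-11.44 to -3.61). The myoblast and muscle list stood at -1.92 (-2.08 to -1.76), and at -0.77 without Ttn. Of its 2 members with at least 100 UMIs, Ttn passed 2-fold and Des was level at -0.07. After leaving out the nuclei with at least 5 Ttn UMIs and forming the quartiles anew (a step added after the data were seen), the ratio of Ryr1 was -0.05 (-0.92 to 0.79), while Prpf38b had a ratio of -1.07 and the snoRNA class one of 1.02. That filter selects on Ttn itself, so no value of Ttn or of the list after it is given. Standard nuclei also had their Ttn in the Malat1-high quartile, 276 against 1341 UMIs, a ratio of -2.69.

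Fewer genes were found in Malat1-low nuclei at equal depth. With each nucleus thinned to 750 UMIs, the median was 166 genes in the low and 211 in the high quartile. Unthinned medians were 231 and 287. When the thinning was to 100 UMIs outside the 5 genes and Malat1, both medians were 93, with 3 low and 1 high nuclei left out as too shallow. The ratio of STAR to kallisto UMIs over 21531 protein-coding genes, a comparison of genome with transcript alignment, was 7.24 in Malat1-low and 5.89 in Malat1-high nuclei.

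Because ENSMUSG00002075551 was listed either at 0 or at 15 or more UMIs, the quartiles were formed again inside each class. The source of this gap in the counts is not known, so a listed 0 may not mean that the RNA was absent. Among the 828 nuclei listed at 0, the snoRNA class had a log2 ratio of 1.14, histones 0.88, ribosomal protein genes 0.46 and mitochondrially encoded RNA 0.54. Among the 507 nuclei with it, the same ratios were 0.65 (0.46 to 0.84), 0.58 (0.47 to 0.69), 0.31 (0.11 to 0.51) and 0.16 (0.01 to 0.31). Its own ratio within the 507 nuclei was 0.34, against 1.18 over all nuclei. Snord17 had a ratio of 0.42 (-0.12 to 0.96) there, and Snord118 0.94 (0.48 to 1.41). The directions were the same in both classes for these RNAs, and each ratio was smaller where ENSMUSG00002075551 was listed.

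Free RNA was read from 229964 tailed barcodes with 1 to 100 UMIs. Malat1 was 5.90% of their UMIs outside the 5 genes, between the shares of the end quartiles. Their snoRNA share was 3.86% and their mitochondrial share 2.73%, above both quartiles. Over 398 genes, the low-over-high ratio and the ratio of these barcodes over nuclei of the middle quartiles had a Spearman correlation of 0.16. Of the 13 genes past 2-fold on the Malat1-low side, 11 were higher in these barcodes than in middle nuclei, against 72 of all 398 genes and 2 of the 7 on the Malat1-high side. The median log2 ratio of these barcodes over middle nuclei was 0.63 for the 20 genes highest in Malat1-low nuclei and -0.45 for all genes. Snord17 stood at 2.86 and Snord118 at 1.95, while H2ac15 was at -0.95 and Gm15564 was also below 0. The part of free RNA in the differences was not tested.

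The same ranking of the 1123 standard nuclei gave quartiles of 281 nuclei with Malat1 shares of 8.58% and 26.2%. There 7 of 844 genes (0.829%) were at least 2-fold higher in Malat1-low nuclei and 5 (0.592%) at least 2-fold higher in Malat1-high nuclei. Ribosomal protein genes had a log2 ratio of 0.63 (0.53 to 0.72) and speckle and splicing genes -0.24 (-0.29 to -0.18), the same directions as in tailed nuclei, though the latter list stood at -0.01 (-0.04 to 0.02) in STAR counts of standard nuclei. Mitochondrially encoded RNA went the other way, at -0.64 (-0.75 to -0.53). At 750 UMIs, standard nuclei had 410 genes in the low and 341 in the high quartile, the reverse of the tailed order, but at 100 UMIs outside the 5 genes and Malat1 the medians were 97 and 96. The snoRNA class had only 21 and 12 UMIs there, a ratio of 0.40 (-0.69 to 1.56). Over 376 genes in both libraries, the 2 sets of ratios had a Spearman correlation of 0.48 and a Pearson correlation of 0.52 across genes.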

How the data were processed

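The authors trimmed reads with cutadapt 3.4 and made 2 deposited matrices per library on GRCm39 with GENCODE M28 (versions from the submitters' processing notes). The deposited kallisto 0.48.0 and bustools 0.41.0 matrix holds estimated counts of UMIs, a few of them not whole, and the deposited STAR 2.7.10a matrix holds whole counts of UMIs. The sources used here do not state whether the STAR counts include introns.

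Nuclei were barcodes with over 750 kallisto UMIs. The low quartile had Malat1 shares at or under the 25th percentile and the high quartile shares above the 75th. Sums over a quartile were rounded to whole UMIs, and ratios have conditional exact 95% intervals. A gene needed 100 UMIs in both end quartiles together. STAR totals used as denominators left out genes with a 31-base word of rRNA, except for shares of all STAR UMIs. Doublets were not called. Classes, coordinates and sequences came from GENCODE M39 and GRCm39. Genes were named as the 10 highest and 10 lowest, the rule's genes, the most abundant of each class and of each list, and a short fixed list. The members and lists were chosen with earlier results of these data known. The ratio calculation was tested on simulated data. Python 3.11.15, NumPy 2.4.6, SciPy 1.17.1 and pandas 2.3.3 were used. Alternatives were other UMI minima, bounds, rankings, gene minima and counts. The authors' own comparison was by Wilcoxon tests between libraries and was not used here. One sequence and the values of its gene are not reported here.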

Additional observations from a re-analysis of the deposited data

Results flagged for a closer look

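Some results had opposite signs in the 2 libraries, with both counting intervals on their own side of 0. The difference between libraries was not tested, and there was 1 library for each. Mitochondrially encoded RNA had a log2 ratio of Malat1-low over Malat1-high nuclei of 0.37 in tailed and -0.64 in standard nuclei. Nuclear lncRNAs other than Malat1 had ratios of 0.13 and -0.13, and in tailed nuclei that value rests on Gm47283. The log2 ratio of STAR to kallisto counts was 0.30 higher in Malat1-low tailed nuclei and -0.14 in standard nuclei.

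2 genes that the kallisto comparison does not use took much of the STAR counts of tailed nuclei and little of those of standard nuclei. Peak1 held 33.9% of STAR UMIs in Malat1-low and 24.1% in Malat1-high nuclei, against 0.102% and 0.101% in the standard quartiles. ENSMUSG00002076173 held 21.3% and 14.7%, against 0.0165% and 0.0185%.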

How the results depend on the processing

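No paired analysis was possible because there was a single library, with no replicate numbers, behind both quartiles. The values below are log2 ratios of Malat1-low over Malat1-high nuclei, except genes detected, a plain ratio of medians, and counts of genes past 2-fold. As reported they were 0.22 for the 5-gene share, 1.18 for ENSMUSG00002075551, 1.06 for snoRNAs, 0.37 for mitochondrially encoded RNA, 0.13 for nuclear lncRNAs, 0.41 for ribosomal protein genes, 0.85 for histones, 0.30 for the STAR to kallisto ratio, 0.79 for genes detected, and 13 and 7 genes. Of the recomputed values, 67 stayed within their counting interval (or, for gene counts, within 1.5 times). Another 75 left it without a reversal, and 4 changed direction. The 75 include genes detected at a ratio of 1.00, which is no difference, and gene counts, which have no direction. Except where a change of direction or its construction is stated, the cause of a shift was not tested.

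Directions changed in 4 cases. With STAR counts the 5-gene share was -0.48 and nuclear lncRNAs -0.36. Nuclear lncRNAs were -0.12 between the lowest and highest 10% of nuclei and -0.093 within nuclei with at least 15 UMIs of ENSMUSG00002075551.

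STAR counts also gave 1.07 for ENSMUSG00002075551, 0.75 for snoRNAs, 0.16 for mitochondrial RNA, 0.21 for ribosomal proteins and 0.54 for histones, with 25 genes past 2-fold on the low and 102 on the high side of 3318. With nuclei over 500 UMIs, the 5-gene share was 0.20, ENSMUSG00002075551 1.09, histones 0.77 and STAR to kallisto 0.28, with 13 genes on the high side. With nuclei over 1500 UMIs, the values were 0.24 for the 5-gene share, 1.11 for ENSMUSG00002075551, 1.19 for snoRNAs, 0.26 for mitochondrial RNA, 0.31 for STAR to kallisto and 0.72 for genes detected. For the lowest and highest 10%, they were 0.29 for the 5-gene share, 1.03 for ENSMUSG00002075551, 1.31 for snoRNAs, 0.081 for mitochondrial RNA, 0.95 for histones and 0.28 for STAR to kallisto, with 8 genes on the low side. Quartiles formed inside 10 depth bins gave 0.17 for the 5-gene share, 1.195 for ENSMUSG00002075551, 0.91 for snoRNAs, 0.25 for mitochondrial RNA, 0.58 for ribosomal proteins, 0.19 for STAR to kallisto and 0.86 for genes detected, with 7 genes on the low side.

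In nuclei with ENSMUSG00002075551 listed at 0 the 5-gene share was 0.21, mitochondrial RNA 0.54 and genes detected 0.88. In the other nuclei, the 5-gene share was 0.10, its own value 0.34, snoRNAs 0.65, mitochondrial RNA 0.16, histones 0.58 and STAR to kallisto 0.13, with 1 gene on the low and 4 on the high side. Ranking over all kallisto UMIs gave 0.36 for the 5-gene share, 2.05 for ENSMUSG00002075551, 1.39 for snoRNAs, 0.53 for mitochondrial RNA, 0.46 for STAR to kallisto and 0.63 for genes detected, with 13 genes on the high side. This ranking has the 5 genes in its denominator. Ranking by STAR counts gave 0.25 for the 5-gene share, 1.66 for ENSMUSG00002075551, 1.38 for snoRNAs, 0.98 for histones and 0.44 for STAR to kallisto, with 17 genes on the high side. Ranking after thinning to 100 UMIs, which put 448 nuclei in the low and 275 in the high group with ties and left out 8, gave 0.19 for the 5-gene share, 0.96 for ENSMUSG00002075551, 0.87 for snoRNAs, 0.64 for histones and 0.20 for STAR to kallisto, with 7 and 4 genes.

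Means of shares over nuclei gave 0.21 for the 5-gene share, 1.37 for ENSMUSG00002075551 and 0.76 for histones. Without the 5% of nuclei with the most UMIs ENSMUSG00002075551 was 1.38. A minimum of 50 UMIs per gene gave 37 and 40 genes, and one of 200 UMIs 2 genes on the high side. Thinned to 100 UMIs outside the 5 genes and Malat1, genes detected had a ratio of 1.00. Leaving out nuclei with at least 5 Ttn UMIs, chosen after seeing the data, gave 0.20 for the 5-gene share, 1.21 for ENSMUSG00002075551 and 0.76 for histones. The division of UMIs for Malat1, its STAR value and 7SK without its highest nucleus were also chosen after seeing the data. A median nucleus held 272 to 379 ranking UMIs, so a Malat1 share near the bounds rests on few molecules, and ratios of genes under 100 UMIs have wide counting intervals.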
